A study of Rattus norvegicus with 6 samples.

Results

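Neurons that fire strongly switch on a set of genes whose products change their synapses or leave the cell as signals. The 9 genes described here, Npas4, Arc, Homer1, Nptx2, Bdnf, Inhba, Vgf, Scg2 and Pcsk1, belong to that set and were taken by their gene symbols from a table of 32623 rat genes. All 9 had a row of their own, and all 9 passed the filter on low counts, with 81 counts or more in each library. They were measured by poly(A) RNA sequencing of rat brain in 6 libraries. In 3 libraries the genotype label was pcDNA3.1, an expression plasmid with no insert named (vector), and in the other 3 it was pcDNA3.1 with LINC00894, a human long non-coding RNA (LINC00894). Both groups thus carried the plasmid backbone. The sample labels gave no strain, age, sex, brain region, time or route of delivery, and they did not say whether the brains had been made ischemic, although the series title concerns ischemia and reperfusion. Nor did they state that each library was a different animal. The p-values therefore refer to library-to-library spread, part of which may be technical.

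In this system, calcium entry at active synapses reaches the nucleus through calcium-dependent kinases and phosphatases, where the transcription factors CREB, SRF and MEF2 start transcription within minutes. Npas4 is an early product, a transcription factor found mainly in neurons that acts on inhibitory synapses and on Bdnf. Arc and a short form of Homer1 then weaken or rescale excitatory synapses, while secreted products such as Bdnf, Nptx2 and the activin subunit Inhba signal to neighbouring cells. Vgf and Scg2 are cargo of dense-core granules, and Pcsk1 cuts such cargo into peptides.

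Summed gene counts ran from 12843875 to 16268464 per library. Markers of neurons were present throughout, with 8 of 8 pan-neuronal genes tested and a summed level of 1962 to 1988 FPKM (fragments scaled to exon length and to library size) in vector and 1538 to 2129 FPKM in LINC00894. Libraries differed in ways the labels did not give. Kdm5d and Eif2s3y, genes of the Y chromosome, were at 0 counts in LINC00894 replicates 1 and 2 and at 491 or more in the other 4 libraries. The hypothalamic peptide gene Oxt, named here after its values were seen, had 257 counts in vector replicate 3 and 291 in LINC00894 replicate 1, against 0 or 1 count in the other 4 libraries. The overexpressed RNA itself was not analysed here, since 0 rows had its symbol.

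The comparison of LINC00894 with vector asked which of the 9 genes differed between the groups. Arc, Homer1, Bdnf and Inhba were lower in LINC00894 in every library against every library. Nptx2 was also lower on average, Npas4 depended on 1 vector library, and the groups overlapped for Vgf, Scg2 and Pcsk1. By edgeR's quasi-likelihood test with Benjamini-Hochberg adjustment over 15121 genes, 0 of the 9 genes passed an adjusted p of 0.05, and neither did any other gene (0.0% of those tested, with 610 at an unadjusted p under 0.05). DESeq2 called 11 genes and limma-voom 0. All 9 log2 fold changes (LINC00894 minus vector) were below 0, as were 48.2% of all genes tested, and their median was -0.75 against 0.012 over all genes. At an unadjusted p under 0.05 by edgeR, 5 of the 9 genes were lower, where 2.22% of all genes were, and 0 were higher, where 1.82% of all genes were. In 4 of the 9 genes the 3 LINC00894 libraries all lay below the 3 vector libraries, which held for 3.88% of all genes (on CPM, counts scaled to library size). The 9 genes were chosen with results of these data known, so these shares describe them and carry no test.

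**Figure D1:**
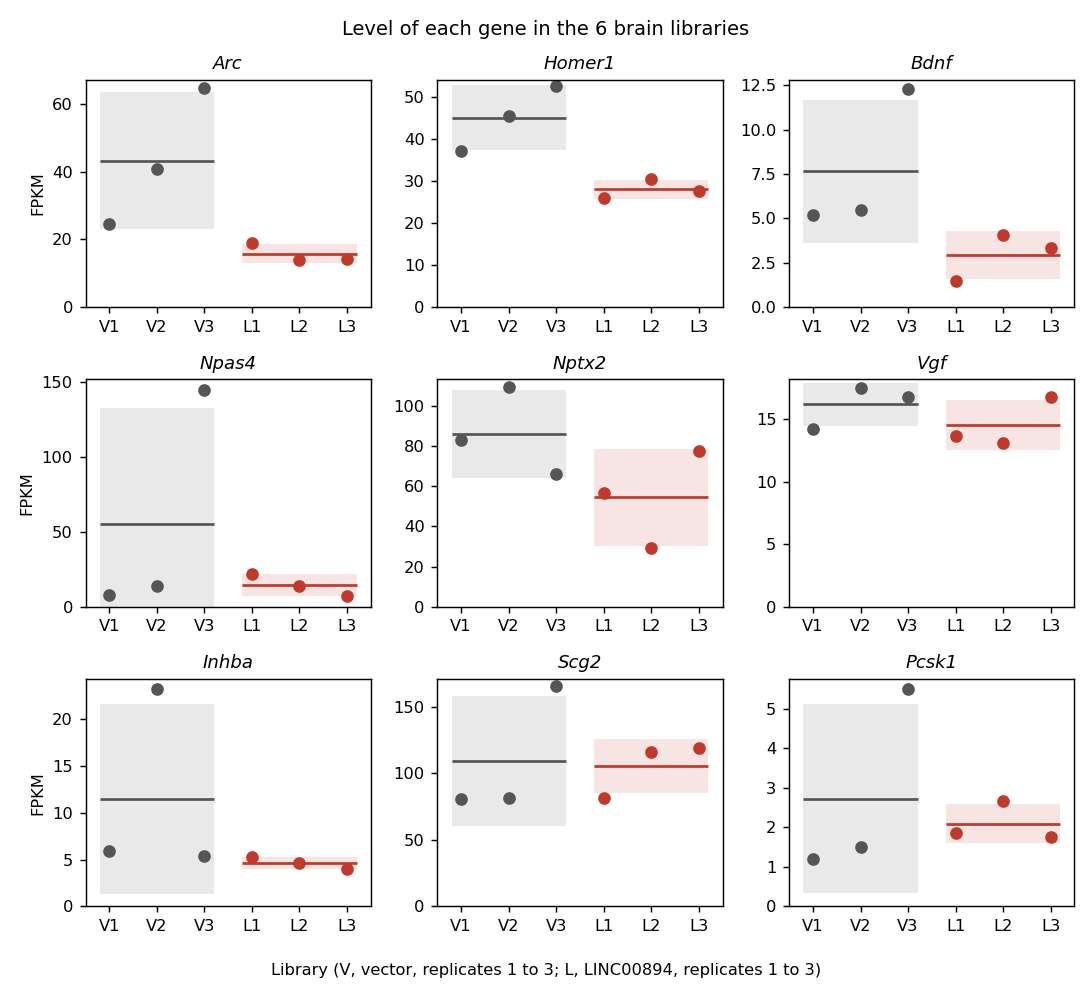
Level of each of the 9 genes in FPKM (vertical axis, from 0) in the 6 libraries (horizontal axis). Points are libraries, lines are group means and bands are 1 SD either side, ended at 0 where they would go below it (n = 3 per group). For Arc, Homer1, Bdnf and Inhba all 3 LINC00894 points lie below all 3 vector points, while Npas4 at 144 FPKM in vector replicate 3 stands above its other 5 points.

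Arc encodes a protein that is made near active synapses and removes AMPA-type glutamate receptors from them. It stood at 24.5, 40.7 and 64.6 FPKM in the vector libraries, against 19.1, 13.9 and 14.4 FPKM in those of LINC00894 (replicates 1 to 3 in this order, here and for each gene). The groups did not overlap, and the vector libraries spread 2.63-fold between lowest and highest against 1.37-fold in LINC00894. Group levels were 43.3 ± 20.1 and 15.8 ± 2.85 FPKM (mean ± SD, n = 3 each), a 2.88-fold lower fitted level in LINC00894. The log2 fold change was -1.53 (SE 0.31, 95% interval -2.23 to -0.83), with an adjusted p of 0.981 and an unadjusted p of 0.000735 by edgeR, the fifth smallest of all genes. DESeq2 gave Arc a Benjamini-Hochberg adjusted p of 0.00345, 1 of 9 lower genes it called (0.0595% of genes), and edgeR without a filter on low counts gave 0.0116, 1 of 4 lower genes called (0.0175%). The estimate stayed between -1.82 and -1.13 with any 1 library left out, and was nearest to 0 without vector replicate 3. Arc (ENSRNOG00000043465) lies, in the coordinates of the table, for which no source used here names a build, on chromosome 7 from 115907097 to 115910541 on the minus strand.

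Homer1 encodes a postsynaptic scaffold that ties metabotropic glutamate receptors to internal calcium stores, and its short, activity-induced form loosens that tie. The table gives 1 value per gene, so the short and long forms could not be separated. Homer1 stood at 37.2, 45.5 and 52.7 FPKM in the vector libraries, against 26.0, 30.6 and 27.6 FPKM in those of LINC00894. The groups did not overlap, and the vector libraries were spread more widely than those of LINC00894. The log2 fold change was -0.75 (SE 0.17, 95% interval -1.14 to -0.36, edgeR adjusted p 0.981, unadjusted p 0.00165), a 1.68-fold lower level, and it ranged from -0.88 to -0.64 with 1 library left out. Homer1 (ENSRNOG00000047014) lies on chromosome 2 from 22909569 to 23009678 on the plus strand.

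Nptx2 encodes a secreted pentraxin that gathers AMPA receptors on interneurons. It stood at 82.7, 109 and 66.0 FPKM in the vector libraries, against 56.4, 29.4 and 77.6 FPKM in those of LINC00894. The groups overlapped, since LINC00894 replicate 3 lay above vector replicate 3. Its log2 fold change came to -0.73 (SE 0.31, 95% interval -1.43 to -0.03, edgeR adjusted p 0.981, unadjusted p 0.0438). It was -0.46 without LINC00894 replicate 2, the lowest library, and -1.10 without LINC00894 replicate 3.

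Bdnf encodes a growth factor that strengthens synapses through the receptor TrkB. It stood at 5.18, 5.49 and 12.3 FPKM in the vector libraries, against 1.45, 4.04 and 3.35 FPKM in those of LINC00894. The groups did not overlap, although the lowest vector and the highest LINC00894 library were close, and each group had 1 library apart: vector replicate 3 high and LINC00894 replicate 1 low. This gave a log2 fold change of -1.44 (SE 0.43, 95% interval -2.41 to -0.48, edgeR adjusted p 0.981, unadjusted p 0.00782). Leaving out vector replicate 3 gave -0.93, and leaving out LINC00894 replicate 1 gave -1.11. Among the 4 libraries without Oxt counts, which leaves out both, it was -0.58 (SE 0.21, edgeR adjusted p 0.735).

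Inhba encodes the subunit of activin A, a secreted TGF-beta family factor. It stood at 5.88, 23.1 and 5.35 FPKM in the vector libraries, against 5.30, 4.63 and 4.0 FPKM in those of LINC00894. Vector replicate 2 was 3.93-fold above the next library, while the other 5 lay between 4.0 and 5.88 FPKM, and the lowest vector value was only just above the highest LINC00894 value. Its fitted log2 fold change was -1.36 (SE 0.50, 95% interval -2.49 to -0.24, edgeR adjusted p 0.981, unadjusted p 0.0228). Without vector replicate 2 it was -0.36 (edgeR unadjusted p 0.186). Fst, which encodes the activin antagonist follistatin, was also highest in that library, at 1.09, 3.98 and 2.96 FPKM in the vector libraries, against 0.84, 2.06 and 1.23 FPKM in those of LINC00894.

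Npas4 had the most uneven values of the 9 genes. It stood at 7.90, 14.04 and 144 FPKM in the vector libraries, against 21.8, 14.1 and 7.41 FPKM in those of LINC00894. Vector replicate 3 was 6.61-fold above the next library, LINC00894 replicate 1, and the other vector libraries lay within the LINC00894 range. Its standard deviation over vector libraries was 2.22 on the log2 CPM scale, at percentile 99.95 of all genes tested. The fitted log2 fold change of Npas4 was -2.02 (SE 0.93, 95% interval -4.09 to 0.06, edgeR adjusted p 0.981), and without vector replicate 3 it was 0.31 (edgeR unadjusted p 0.45). Among the 4 libraries without Oxt counts it was -0.08 (SE 0.35).

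The 2 libraries with the highest Npas4 also had the highest levels of Avp and Oxt, genes of magnocellular hypothalamic neurons. Avp, the vasopressin gene, stood at 1.69, 2.78 and 30.6 FPKM in the vector libraries, against 14.5, 0 and 1.3 FPKM in those of LINC00894. Oxt, the oxytocin gene, stood at 0, 0.12 and 30.6 FPKM in the vector libraries, against 41.7, 0 and 0 FPKM in those of LINC00894. Both genes were thus high in vector replicate 3 and LINC00894 replicate 1 and at most 2.78 FPKM elsewhere. Of the 8 hypothalamic markers listed, 8 were in the table and 4 passed the filter, and Pmch had 0 counts in every library. The summed level of all 8 ran from 23.2 to 79.4 FPKM in vector and from 5.56 to 80.9 FPKM in LINC00894. Gal was also highest in vector replicate 3 and LINC00894 replicate 1 (4.14 and 5.71 FPKM), with 3.91 FPKM in LINC00894 replicate 3. Pomc, Agrp and Hcrt did not have their 2 highest values there. Agrp lay between 0.58 and 0.93 FPKM in every library. Pomc was 0.96 FPKM in LINC00894 replicate 1, below each vector library. Another peptide gene of that list, Trh, was highest in vector replicate 2, where Inhba was also highest, at 15.8, 58.2 and 9.78 FPKM in the vector libraries, against 16.9, 3.08 and 4.21 FPKM in those of LINC00894. The part of tissue composition in the values of Npas4 and Inhba was not tested, and in bulk tissue fewer cells of a type and less RNA per cell cannot be told apart.

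**Figure D2:**
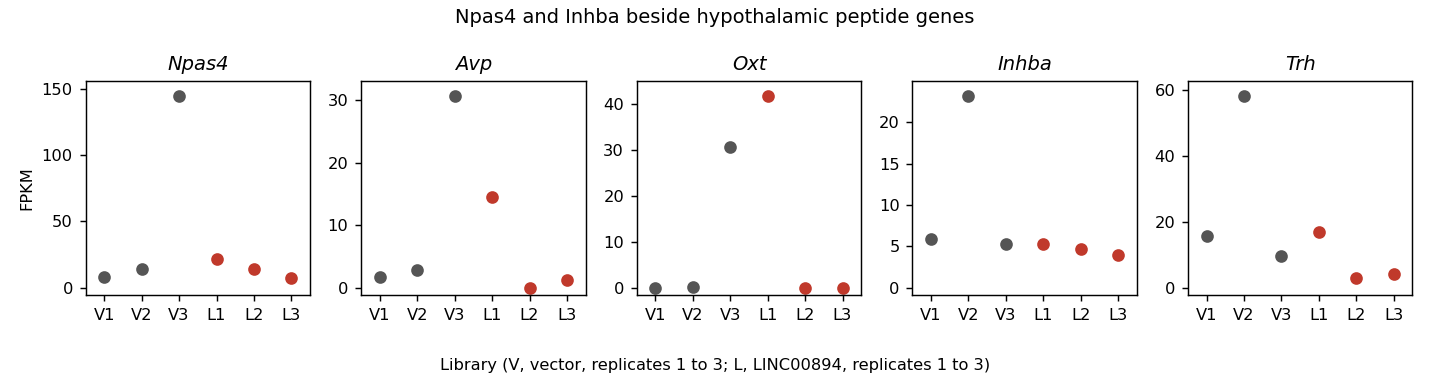
Levels in FPKM (vertical axes) of Npas4, Avp, Oxt, Inhba and Trh in the 6 libraries (horizontal axes). Each point is 1 library, grey for vector and red for LINC00894. Npas4, Avp and Oxt are highest in vector replicate 3 and LINC00894 replicate 1, though in different order, and Inhba and Trh are highest in vector replicate 2, at 23.1 and 58.2 FPKM.

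The granule genes did not separate the groups. Vgf, a granule protein cut into several neuropeptides, stood at 14.2, 17.5 and 16.8 FPKM in the vector libraries, against 13.7, 13.1 and 16.8 FPKM in those of LINC00894. The groups overlapped, and its log2 fold change was -0.22 (SE 0.17, 95% interval -0.60 to 0.16). Scg2, the granin from which secretoneurin is cut, stood at 80.3, 81.5 and 165 FPKM in the vector libraries, against 81.7, 116 and 119 FPKM in those of LINC00894. Vector replicate 3 was the highest, and the other 2 vector libraries and LINC00894 replicate 1 were low and nearly equal. Its log2 fold change was -0.12 (SE 0.29, 95% interval -0.77 to 0.54) with all libraries, 0.30 without vector replicate 3 and 0.48 (SE 0.16, edgeR adjusted p 0.697) among the 4 libraries without Oxt counts.

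Pcsk1 encodes prohormone convertase 1/3, which acts on Vgf and Scg2 products and on many hormone precursors. It had the lowest group means of the 9, at 1.2, 1.5 and 5.5 FPKM in the vector libraries, against 1.86, 2.67 and 1.77 FPKM in those of LINC00894, with 81 to 437 counts. Vector replicate 3 was above and the other vector libraries below all LINC00894 libraries. Its log2 difference between groups was -0.45 (SE 0.52, 95% interval -1.62 to 0.71) with all libraries and 0.56 without vector replicate 3.

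**Figure D3:**
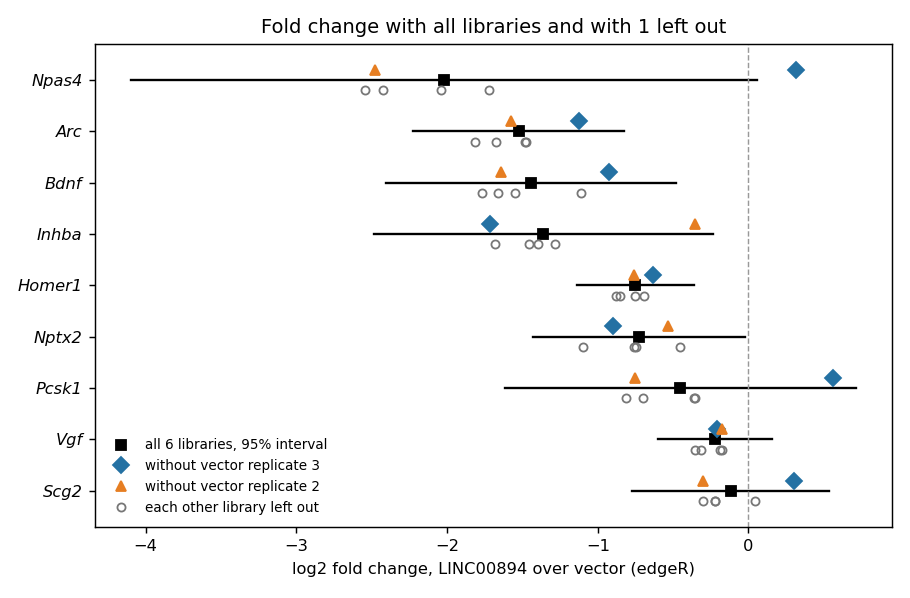
Log2 fold change of LINC00894 over vector (horizontal axis) for the 9 genes (vertical axis). Squares and bars are the edgeR estimate and its 95% interval with all 6 libraries, and the other symbols are estimates with 1 library left out. Without vector replicate 3 the estimates of Npas4, Pcsk1 and Scg2 move to 0.31, 0.56 and 0.30, and without vector replicate 2 that of Inhba moves to -0.36.

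Two-sided exact permutation tests of log2(FPKM + 0.1) gave p = 0.1 for Arc, Homer1, Bdnf and Inhba, the smallest value that 20 arrangements of 3 against 3 libraries allow. They gave exact p = 0.2 for Nptx2, 0.3 for Vgf, 0.7 for Npas4, 0.8 for Scg2 and 1 for Pcsk1. No test of this kind can pass 0.05 in this design.

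Vector replicate 3 held the highest value of 6 of the 9 genes (Arc, Homer1, Bdnf, Npas4, Scg2 and Pcsk1) and vector replicate 2 that of the other 3. No LINC00894 library held the highest value of any of the 9. The matching shares over all genes tested are not given here, so these counts do not show a trait particular to the 9 genes. Vector replicate 3 also differed in cell type markers. Its summed oligodendrocyte markers were the highest, at 3376 FPKM against 1503 to 2620 FPKM in the other libraries. Its astrocyte sum was the lowest, at 1359 FPKM against 1654 to 1940 FPKM, but not all genes of that list were low. Gfap was lowest there, at 156 FPKM against 485 to 798 FPKM in the other libraries. Slc1a2 (312 FPKM) and Aldh1l1 (5.3 FPKM) were highest there, and the remaining astrocyte genes lay within the range of the other libraries. The median deviation of the astrocyte list there was -0.02 log2 units. The pan-neuronal sum of vector replicate 3, 1962 FPKM, lay within the range of the others. The part of this in the values of the 9 genes was not tested. The median deviation of the 9 genes from their own means was -0.05, 0.34 and 0.72 log2 units in vector replicates 1, 2 and 3 and -0.34, -0.23 and -0.40 in LINC00894 replicates 1, 2 and 3. Vector replicate 1 thus lay between the remaining vector libraries and LINC00894. Vector libraries also varied more: the median standard deviation of the 9 genes was 0.70 log2 units in vector and 0.32 in LINC00894, against 0.23 and 0.27 over all genes. It was larger in vector in 6 of the 9 genes, as in 42.7% of all genes, with Bdnf, Nptx2 and Vgf the exceptions.

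**Figure D4:**
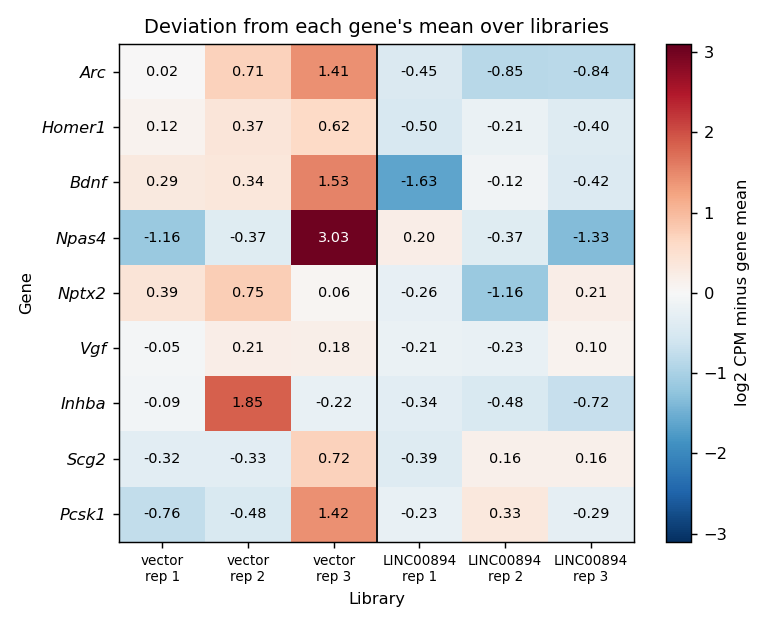
Deviation of log2 CPM (TMM-scaled) from the 6-library mean of each gene, by colour and printed value, with genes as rows and libraries as columns. Vector replicate 3 is high for 6 genes, up to 3.03 for Npas4, and vector replicate 2 reaches 1.85 for Inhba.

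Per length, the 9 genes spanned from Scg2 at 109 ± 48.8 FPKM in vector (mean ± SD, n = 3) to Pcsk1 at 2.73 ± 2.40 FPKM. In vector the order was Scg2, Nptx2, Npas4, Homer1, Arc, Vgf, Inhba, Bdnf and Pcsk1, and Arc and Vgf were the only neighbours in it whose libraries did not overlap. In LINC00894 it was Scg2, Nptx2, Homer1, Arc, Vgf, Npas4, Inhba, Bdnf and Pcsk1. There the library ranges of neighbours parted between Scg2 and Nptx2, between Homer1 and Arc, and between Npas4 and Inhba.

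Promoters of the 9 genes were searched for binding sequences of activity-regulated factors. RefSeq promoters of the GRCr8 assembly, 250 bases before to 50 bases after a start, were found for 7 of the 9 genes in 12 entries, 6 of them for Bdnf. Arc and Pcsk1 had no entry. Letters were matched on both strands. The full cyclic AMP response element TGACGTCA, the site of CREB, was in 1.83% of 33469 promoters and in those of Vgf and Scg2. Its short core TGACG, which also lies on each strand of the full element, was in 21.2% of promoters and in those of Vgf, Scg2, Nptx2 and 1 of Bdnf. The 4 promoters are shown to compare these elements, which are in capitals, with the gene's own strand from 5′ to 3′:
Vgf, chr12:25276971-25277270, minus strand: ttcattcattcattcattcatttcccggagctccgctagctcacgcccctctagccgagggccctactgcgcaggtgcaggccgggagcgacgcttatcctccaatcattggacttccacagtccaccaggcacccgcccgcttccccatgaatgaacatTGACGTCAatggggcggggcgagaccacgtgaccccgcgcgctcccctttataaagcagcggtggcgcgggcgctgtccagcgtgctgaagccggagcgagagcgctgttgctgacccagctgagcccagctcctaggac
Scg2, chr9:88256817-88257116, minus strand: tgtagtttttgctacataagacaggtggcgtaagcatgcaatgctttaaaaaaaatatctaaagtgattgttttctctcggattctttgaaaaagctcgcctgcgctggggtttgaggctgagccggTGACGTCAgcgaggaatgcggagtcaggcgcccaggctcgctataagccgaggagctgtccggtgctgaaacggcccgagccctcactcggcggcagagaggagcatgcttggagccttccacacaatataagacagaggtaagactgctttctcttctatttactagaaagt
Nptx2, chr12:15161996-15162295, minus strand: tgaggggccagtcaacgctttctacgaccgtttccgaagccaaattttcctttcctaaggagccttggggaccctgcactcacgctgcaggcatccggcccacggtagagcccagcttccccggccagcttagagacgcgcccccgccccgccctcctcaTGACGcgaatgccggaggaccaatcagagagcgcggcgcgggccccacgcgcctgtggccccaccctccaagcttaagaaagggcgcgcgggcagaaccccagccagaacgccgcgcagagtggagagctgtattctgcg
Bdnf, chr3:116637608-116637907, plus strand: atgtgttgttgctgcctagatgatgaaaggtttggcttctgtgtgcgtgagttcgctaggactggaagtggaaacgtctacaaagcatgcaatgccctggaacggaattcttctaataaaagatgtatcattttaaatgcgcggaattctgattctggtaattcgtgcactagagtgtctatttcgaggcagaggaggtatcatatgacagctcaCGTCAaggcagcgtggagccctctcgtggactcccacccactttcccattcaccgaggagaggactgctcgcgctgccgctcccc

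The full element began 90 bases before the start in Vgf and 123 bases before it in Scg2. The short core began 90 bases before the start in Nptx2, and in Bdnf it lay on the opposite strand 35 bases before the start. Vgf and Scg2, with the full element, were the members with the log2 fold changes nearest to 0 (-0.22 and -0.12). A relation of the element to the fold change was not tested. Arc and Pcsk1 could not be placed in this comparison, and Homer1, Npas4 and Inhba had neither form in these windows. The AP-1 site TGANTCA was in 7.33% of promoters and in another entry of Bdnf, the CArG box bound by SRF in 1.64% of promoters and in 0 of the 7 genes, and TATAAA in 14.2% of promoters and in Homer1, Bdnf, Vgf and Inhba. In Vgf and Inhba it lay on the gene's own strand, 41 and 40 bases before the start. In Homer1 and Bdnf it lay only on the opposite strand, 223 and 250 bases before the start. These shares are per promoter, while Bdnf had 6 of the 12 entries. A match describes letters and does not show binding.

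The genes with the closest profiles over the 6 libraries were sought among all genes tested, by the root mean square difference of centred log2 CPM. For Arc these were Cacng6, Fosl2 and AABR07031399.1, at 0.11, 0.19 and 0.21 log2 units. Fosl2, an AP-1 subunit, stood at 16.5, 26.0 and 40.5 FPKM in the vector libraries, against 13.8, 6.70 and 10.3 FPKM in those of LINC00894, and Cacng6 was below 1 FPKM in each library. For Homer1 they were Slc24a3, Arhgef3 and Gpc6, at 0.10, 0.11 and 0.12, and Slc24a3, a sodium-calcium exchanger gene, stood at 35.3, 39.6 and 46.4 FPKM in the vector libraries, against 22.8, 32.5 and 25.0 FPKM in those of LINC00894. For Nptx2 they were Klf10, Myl4 and Fam43a, at 0.19, 0.21 and 0.23. No gene came as close to Bdnf or Npas4: the nearest were AC120712.3, Trpc7 and Snx22 for Bdnf at 0.37 to 0.40, and Zim1, AABR07058124.4 and Scn7a for Npas4 at 0.47 to 0.62. Among the 9 genes, Homer1 was the nearest to Arc, at 0.48, with 61 genes nearer, and Pcsk1 the nearest to Npas4, at 0.87. The reverse did not hold. Vgf was the nearest of the 9 to Homer1, at 0.31, while Arc ranked 7252 among all genes tested. Scg2 was the nearest of the 9 to Pcsk1, at 0.40.

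The other genes of these pathways were read from 9 lists, some of whose genes appear in more than 1. Activity-induced transcription factors lay lowest, with 20 of 22 tested genes below 0, 14 of them with unadjusted p under 0.05 by edgeR, and a median log2 fold change of -0.86. Over all genes tested, for comparison with this and each later list, 48.2% were below 0, 2.22% were lower and 1.82% higher at that level. Egr4, Fosb and Nr4a1 had the smallest p, with log2 fold changes of -2.94, -2.46 and -2.25. The list's median deviation was -0.097, 0.663 and 0.612 log2 units in vector replicates 1, 2 and 3, and -0.205, -0.993 and -0.088 in those of LINC00894. Vector replicate 1 thus lay within the LINC00894 range. In 8 of the 22 genes all LINC00894 libraries lay below all vector libraries on CPM, as in 3.88% of all genes. Other activity-induced effectors had a median of -0.45, with 23 of 28 below 0 and 6 lower at an unadjusted p under 0.05. Sik1, a kinase that restrains CREB coactivators, had the smallest p there, with a log2 fold change of -1.06 (SE 0.29), followed by Dusp6, an ERK phosphatase, at -1.18 (SE 0.40) and Tiparp at -1.10 (SE 0.41). None of the genes in these lists passed edgeR's adjusted p.

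Signalling that feeds these genes was also read. Of 18 NPAS4 partners and CREB coactivators, 16 were below 0 (median -0.20) and 3 were lower at an unadjusted p under 0.05: Mef2d, Crtc1 and Srf. Mef2d, a transcription factor activated by calcium, stood at 51.6, 53.4 and 56.5 FPKM in the vector libraries, against 43.5, 41.7 and 29.5 FPKM in those of LINC00894, without overlap (log2 fold change -0.56, SE 0.18). For Crtc1, a CREB coactivator, it was -0.55 (SE 0.20), and for Srf -0.42 (SE 0.16). The FPKM values of Srf did not overlap between groups, and those of Crtc1 did, by vector replicate 3 at 33.3 and LINC00894 replicate 2 at 33.4 FPKM. Arnt2, the dimer partner of NPAS4 in neurons, had one of -0.34 (SE 0.21) and Creb1 one of 0.07 (SE 0.28); these genes were picked for their role.

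At the synapse, 20 of 22 partners of Arc and Homer1 were below 0 (median -0.29), with 0 at an unadjusted p under 0.05 by edgeR. The scaffold genes Shank1 (log2 fold change -0.44, SE 0.20) and Shank3 (-0.37, SE 0.17) and the NMDA receptor subunit gene Grin2b (-0.85, SE 0.39) had the smallest p. Of the pentraxin and AMPA receptor clustering list, 9 of 11 tested were below 0 (median -0.17) and 0 had an unadjusted p under 0.05. Nptxr, the pentraxin receptor, stood at 321, 320 and 184 FPKM in the vector libraries, against 127, 225 and 238 FPKM in those of LINC00894, with overlapping groups. The log2 fold change was 0.28 (SE 0.21) for Adam17, whose protease sheds that receptor, and -0.51 (SE 0.46) for C1ql2. Glutamatergic neuron markers had a summed level of 408 to 626 FPKM in vector and 313 to 496 FPKM in LINC00894, with 8 of 8 below 0 and a median of -0.25. The library with the lowest such sum, LINC00894 replicate 1, was the highest of its group for Arc and the lowest for Homer1 and Bdnf. Of the tested cerebellar markers, 4 of 4 were below 0 (median -0.41), 2 of them at an unadjusted p under 0.05 by edgeR. The listed Pcp2, Gabra6 and Barhl1 had at most 1, 10 and 9 counts in any library and were not tested. The sum over all 7 in the list was 20.7 to 28.3 FPKM for vector and 16.8 to 19.6 FPKM for LINC00894. Endothelial markers were above 0 in 6 of 6 tested (median 0.46, 2 at an unadjusted p under 0.05 by edgeR), with Cldn5 at 0 in each library. Their sums were 40.7 to 51.9 FPKM in vector, and 89.6, 49.4 and 53.8 FPKM in LINC00894 replicates 1, 2 and 3. Striatal markers were above 0 in 8 of 8 (median 0.16, 0 at an unadjusted p under 0.05 by edgeR), with sums of 384 to 495 and 361 to 615 FPKM. The part of these cell types in the values of the 9 genes was not tested.

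For secreted ligands, 11 of 17 genes of BDNF receptors and processing were below 0 (median -0.11), 2 of them at an unadjusted p under 0.05. Plat, the protease tPA that starts the cleavage of proBDNF outside cells, stood at 74.4, 70.4 and 66.7 FPKM in the vector libraries, against 61.5, 28.2 and 40.5 FPKM in those of LINC00894. The groups did not overlap (log2 fold change -0.77, SE 0.24, edgeR adjusted p 0.981). For the sorting receptor gene Sort1 the log2 fold change was -0.41 (SE 0.21), and for Ntrk2, the TrkB gene, named for its role, it was -0.34 (SE 0.20). In the activin and follistatin pathway 11 of 16 tested were below 0 (median -0.14), and 1 had an unadjusted p under 0.05, Smad7, an inhibitor of the pathway (-0.55, SE 0.19). For Acvr1c the log2 fold change was -0.45 (SE 0.22), and for Fst -1.02 (SE 0.53).

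Among dense-core granule and prohormone processing genes, 14 of 16 tested were below 0 (median -0.18) and 0 had an unadjusted p under 0.05. The smallest p were those of Ptprn2 (log2 fold change -0.37, SE 0.19), the granin gene Chga (-0.36, SE 0.21) and Cadps (-0.26, SE 0.20), which primes granules for release. Neuropeptides were mixed, with 7 of 17 tested below 0 and a median of 0.07. Trh (-1.86, SE 0.74) was lower and Nts (1.23, SE 0.51) higher at an unadjusted p under 0.05 by edgeR, and Pdyn had a log2 fold change of 0.43 (SE 0.20).

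**Figure D5:**
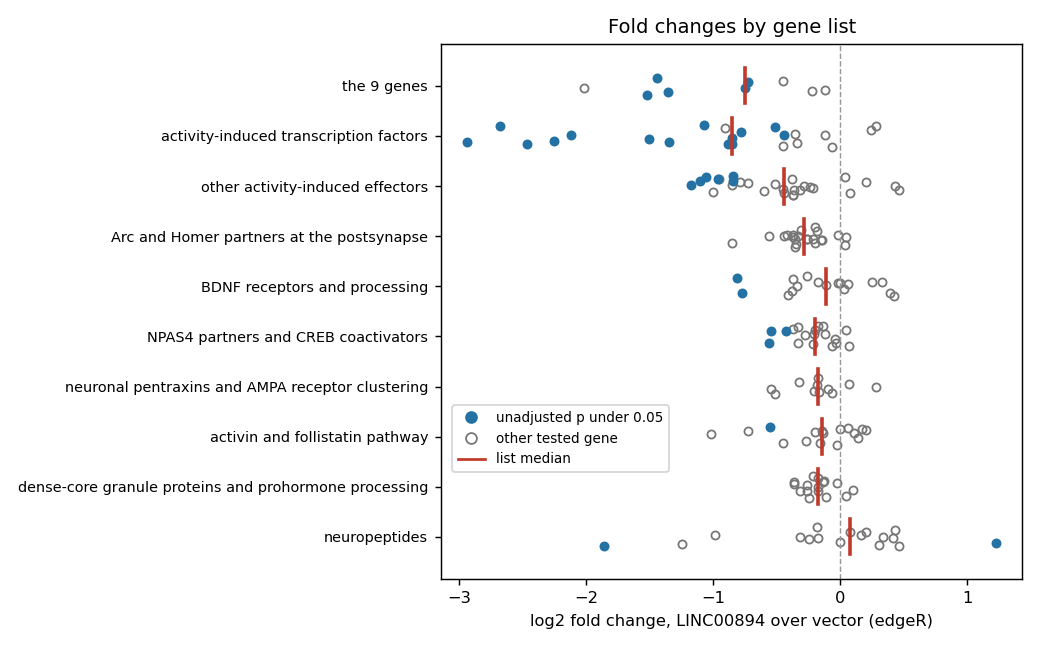
Log2 fold change of LINC00894 over vector by edgeR (horizontal axis) for each tested gene of the 9 genes and of the 9 lists (vertical axis, with random vertical scatter). Filled points had an unadjusted p under 0.05 and red bars are list medians, which run from -0.86 for activity-induced transcription factors to 0.07 for neuropeptides.

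The differing Y-linked counts bear on the comparison, since 2 of 3 LINC00894 libraries had none, so a fit that accounts for them compares the vector libraries with LINC00894 replicate 3 alone. With the presence of such counts as a covariate, Arc and Homer1 were the 2 of the 9 genes at an unadjusted p under 0.05 by edgeR, where 6.25% of all genes were lower at that level. Their log2 fold changes were then -1.67 and -0.78, against -0.22 for Nptx2 and -1.27 for Bdnf. Among the 4 libraries without Oxt counts, 5 of the 9 genes were lower at an unadjusted p under 0.05 by edgeR, where 3.98% of all genes were. Scg2 was higher at that level, where 884 of 15115 genes were lower or higher. That fit left out vector replicate 3 and LINC00894 replicate 1, the libraries with the highest Npas4, and so compared 2 libraries with 2. Arc had a log2 fold change of -1.26 (SE 0.24) there and Homer1 one of -0.56 (SE 0.18).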

How the data were processed

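Gene expression was measured in 6 rat brain libraries, placed in groups by genotype as labelled; replicate numbers follow accession order and link no libraries. Poly(A) RNA was read from both fragment ends, per the labels' protocols. HISAT2 2.0.1 and DESeq2 stand in the submitters' processing notes, with no step assigned to either. No source used here gives the counting tool, its strand setting, the annotation or the build. None of the 9 genes overlaps another row of the table.

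The authors deposited 1 table that holds, per the file headers, raw counts and FPKM for each gene and library. FPKM matched counts per exonic length and summed counts within 0.005, the rounding of the file. Rows without a symbol held 0.0236% of counts and stayed in as genes with an Ensembl identifier. Of 262 listed symbols, 258 were matched.

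Genes with low counts were removed by filterByExpr (10 as minimum count, 15 as minimum total). The remaining counts were scaled with TMM factors and tested between groups across all genes with edgeR 4.0.16 (R 4.3.3) by its quasi-likelihood F-test with no covariates and Benjamini-Hochberg adjustment. Centred log2 CPM used a pseudocount of 0.1. The fits were tested on simulated data first. Alternatives used DESeq2 1.42.0, limma 3.58.1, other scalings and filters, log2 FPKM, Y-linked counts above 1000 as a covariate or as a selection, and each library left out. The fit on 4 libraries with at most 100 counts of Oxt was chosen after seeing the data. The 9 genes and the gene lists were chosen with earlier results of these data known. Named genes are the 9 genes, up to 3 genes with the smallest unadjusted p of each list and the 3 nearest profiles of 5 of the genes. One gene that this rule names is not reported here. Arnt2, Creb1, Ntrk2, Oxt and Avp were added, the last 2 after their values were seen. Single genes of the astrocyte, cerebellar and hypothalamic marker lists were also named after their values were seen. Plots were drawn with matplotlib 3.10.9.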

Additional observations from a re-analysis of the deposited data

How the results depend on the processing

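All 18 alternatives kept the log2 fold changes of Arc, Homer1, Bdnf, Inhba, Nptx2 and Vgf below 0. DESeq2 called 11 genes in all and Arc among them (-1.54), and edgeR with no filter on low counts called 8, again with Arc (-1.54). With 1 library left out the number called ran from 0 to 9. The members lower at an unadjusted p under 0.05 numbered 5 with all libraries by edgeR, where 2.22% of all genes were lower. Under most alternatives from 4 to 6 members were lower, where between 1.67% and 3.98% of all genes were. They numbered 3 by limma on log2(FPKM + 1) or log2(FPKM + 0.1), where 1.28% and 1.3% of all genes were lower, 2 with Y-linked counts as a covariate (6.25%) and 2 among libraries with Y-linked counts (6.19%). Scg2 turned positive by limma on log2 FPKM (0.016 with either pseudocount), by limma-voom with sample weights (0.19), with Y-linked counts as a covariate (0.045), among libraries with Y-linked counts (0.050) and among libraries without Oxt counts (0.48). With 1 library left out it ran from -0.30 to 0.30. Pcsk1 turned positive by limma-voom with sample weights (0.33) and among libraries without Oxt counts (0.67), and ran from -0.81 to 0.56 with 1 library left out. Npas4 ran from -2.55 to 0.31 with 1 library left out and reached -2.98 with Y-linked counts as a covariate. The mean log2 difference of Scg2 was -0.051 on TMM-scaled CPM, opposite in sign to log2 FPKM (0.016). The cause of these changes was not tested. No paired analysis was possible because the labels give the libraries no shared replicate numbers. In both fits on Y-linked counts, the group difference rests on 1 LINC00894 library, assumed to vary like the vector libraries. Pcsk1, with 81 to 437 counts, was the member with the fewest counts.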
